A study of Homo sapiens with 21 samples.

Results

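The genes described here are the kinase cascade of the Hippo pathway and the proteins that act just above it: the kinases STK4, STK3, LATS1 and TAOK1, the adaptors SAV1, MOB1A and MOB1B, and the membrane-associated regulators NF2, WWC1 and AMOT. This list was chosen with earlier results of these data known, and it leaves out LATS2, the paralog of LATS1, which is described below. The genes were taken by symbol, and all 10 were found among the 57820 genes of the deposited table. Each had an FPKM of at least 1 in 21 of 21 libraries, so none was lost to the filter that kept 16092 genes for testing. FPKM is a fragment count divided by transcript length and library size, which allows levels of different genes to be set side by side.

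The Hippo pathway restrains growth through a chain of phosphorylations. TAO kinases activate STK4 and STK3 (MST1 and MST2), which act with the scaffold SAV1 to activate the LATS kinases and their MOB1 partners, and LATS then phosphorylates the coactivators YAP1 and WWTR1 (TAZ) so that they stay out of the nucleus. NF2 (merlin) and WWC1 (KIBRA) bring the cascade to the membrane, and AMOT (angiomotin) binds YAP1 and holds it at junctions and actin. Much of the control of this cascade acts on the proteins rather than on their transcripts, and RNA levels are what was measured here.

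RNA was sequenced from NLF, a human neuroblastoma cell line, in 7 groups of 3 libraries. The study asks about YAP and the response to trametinib, an inhibitor of the MEK kinases. Parental NLF cells were in 0.01% DMSO per their labels. The sgCON line, which carries a scrambled guide in a CRISPR-Cas9 lentivirus, and the YAP1 knockout lines YAPKO1 and YAPKO2 were each grown in 0.01% DMSO or in 20 nM trametinib for 72 h from 24 h after plating. The series' design text ties the treatments to the last 3 lines, leaves out parental cells and gives another DMSO concentration, so the exposure of the parental cells is uncertain. Each knockout line was made with 1 guide, and the labels do not say whether a line is 1 clone. Whether replicates come from separate cultures is not stated, so the spread behind each p-value may be technical.

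The guides are shown because they define the groups that all comparisons below rest on; lower case marks the guide and no part is in capitals. The YAPKO1 guide lies at chr11:102111058-102111077 on the plus strand and the YAPKO2 guide at chr11:102110997-102111016 on the minus strand (GRCh38), both in exon 1 of 7 of 11 annotated YAP1 transcripts and each next to a CGG motif that Cas9 requires. The scrambled guide had 0 matches in those transcripts.
YAPKO1: cgccgtcatgaaccccaaga
YAPKO2: gtgcacgatctgatgcccgg
sgCON: gcactcacatcgctacatca

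YAP1 RNA was lower in both knockout lines than in sgCON. In DMSO it stood at 24.96, 24.2 and 27.7 FPKM in sgCON, 13.2, 12.9 and 9.06 in YAPKO1 and 3.17, 2.69 and 2.81 in YAPKO2, with no overlap between lines. The change from sgCON was -1.12 ± 0.23 (log2 ± SE) in YAPKO1 and -2.95 ± 0.23 in YAPKO2 (limma adjusted p = 0.00363 and 5.02e-08). Transcripts of a disrupted gene can persist, so these values check the labels and not the loss of protein.

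Between 13783 and 14233 genes per library had an FPKM of at least 1, and the number of reads is unknown. Of 8 adrenergic neuroblastoma markers 7 had a mean FPKM of at least 1, while 1 of 5 Schwann cell and 2 of 5 epithelial markers did, with CDH1 under 0.1 throughout. All 6 fibroblast markers had a mean FPKM of at least 1. Their summed level ran from 836 to 905 FPKM in parental cells and, in DMSO, from 436 to 522 in sgCON, 219 to 493 for YAPKO1 and 381 to 615 for YAPKO2. In trametinib it ran from 457 to 583 in sgCON, 184 to 265 for YAPKO1 and 199.98 to 345 for YAPKO2. The epithelial sum ran from 15.0 to 18.1 FPKM in the 6 sgCON libraries and from 0.594 to 5.01 in the other 15. The adrenergic sum ran from 257 to 330 FPKM in parental and sgCON libraries and from 385 to 573 in the knockout libraries. The blood and endothelial sum ran from 10.1 to 13.3 FPKM in parental cells and from 0.186 to 2.53 in the other groups. Libraries also differed in how GC-rich and GC-poor coding transcripts compared. This GC trend, the log2 difference between genes above 56.6% and below 41.7% GC, ran from -0.60 to -0.55 in parental cells, from -0.48 to -0.38 and from -0.28 to -0.15 in sgCON in DMSO and trametinib, and from -0.40 to 1.34 in the 12 knockout libraries. Replicate 3 of YAPKO1 in DMSO (0.68) and replicate 2 of YAPKO2 in DMSO (0.62) and in trametinib (1.34) had the highest trend of their groups, and these 3 were left out together in an alternative fit. Replicates also differed within YAPKO1 in trametinib (0.38, -0.07 and 0.52) and YAPKO2 in trametinib, where replicate 3 lay farthest from the others (0.70, 1.34 and -0.25). The part of the marker levels and of the GC trend in the results below was not tested, except where a value without those 3 libraries or with a correction for GC content is given.

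In parental cells MOB1A was the most abundant of the 10 RNAs at 61.3 ± 3.14 FPKM (SD, n = 3). STK4 (22.2 ± 1.55), STK3 (21.5 ± 0.893), AMOT (17.8 ± 3.17), TAOK1 (16.3 ± 2.92) and NF2 (15.8 ± 0.626) followed, each overlapping its neighbour in this order. SAV1 (6.11 ± 0.468), MOB1B (5.55 ± 0.895), WWC1 (4.78 ± 0.669) and LATS1 (4.46 ± 0.486) were the lowest, again with each overlapping the next. The same 4 genes held the lowest places in all 7 groups, and MOB1A the highest mean. Group means of LATS1 differed by at most 1.22-fold across the 7 groups. Those of AMOT differed by 2.38-fold, from 8.12 FPKM in YAPKO2 in trametinib to 19.3 in sgCON in trametinib, which was the widest span of the 10 on the log2 scale (1.20).

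**Figure D1:**
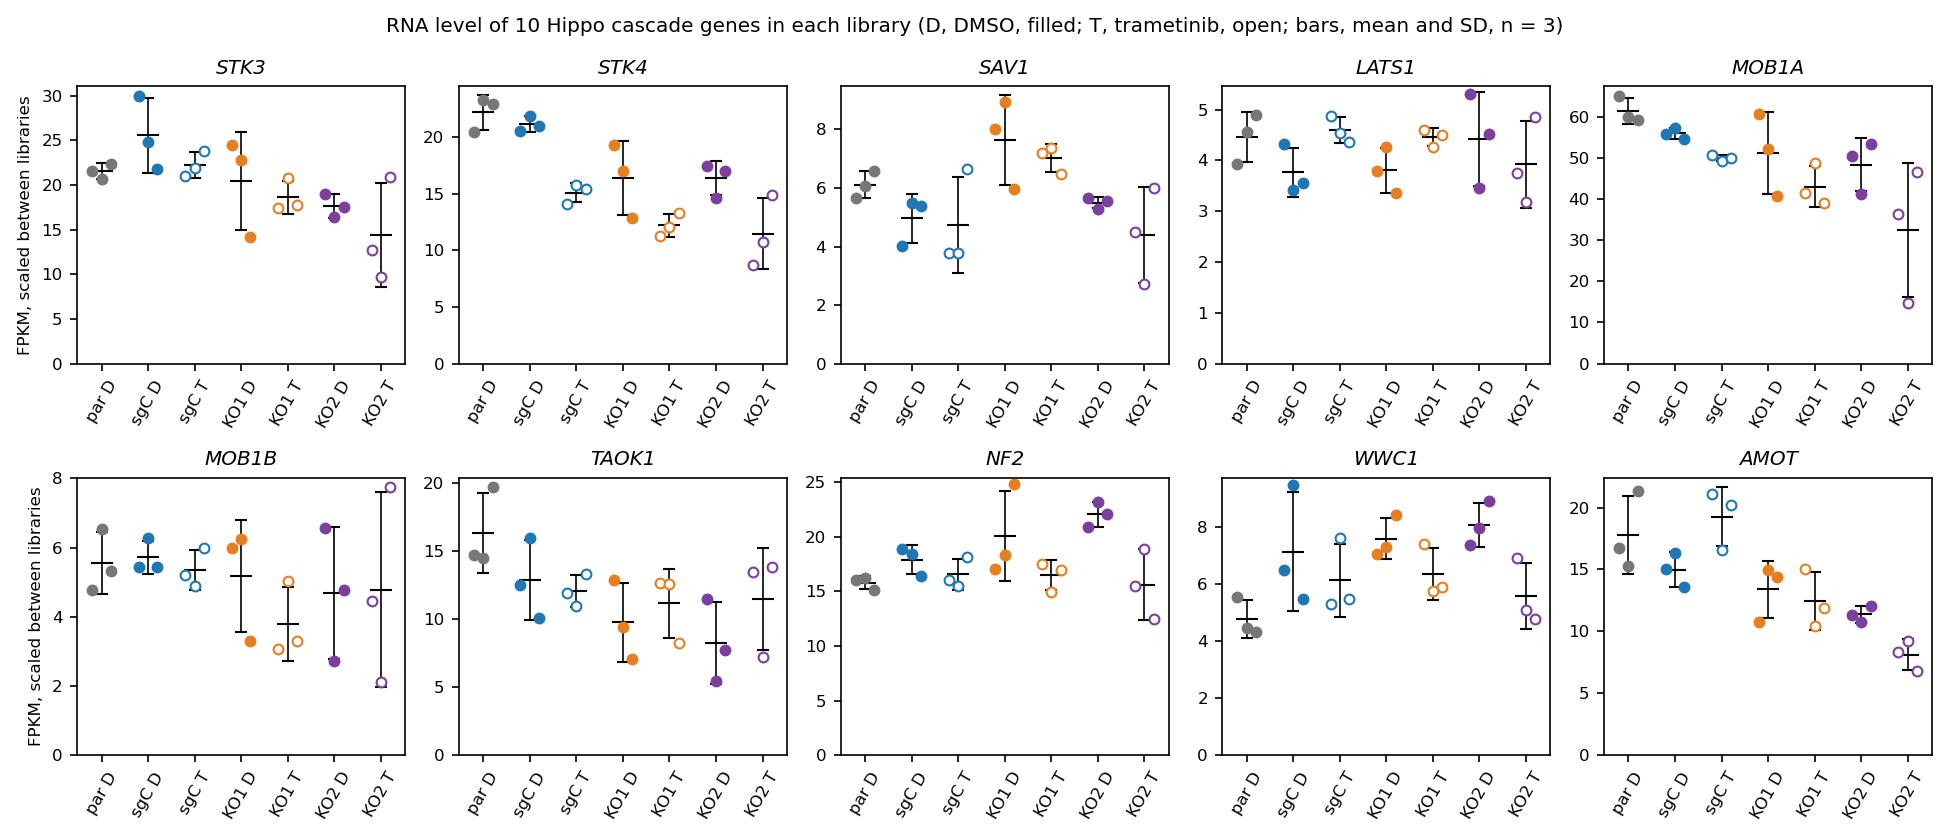
RNA level of each of the 10 genes (y axes, FPKM scaled between libraries, starting at 0) in the 7 groups (x axes; par, parental; sgC, sgCON; KO1 and KO2, the knockout lines; D, DMSO; T, trametinib), with 1 point per library and bars for mean and SD. The AMOT points of YAPKO2 in trametinib (6.77 to 9.22) lie below those of every other group, and MOB1A in that group spreads from 14.7 to 46.6.

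Without the drug, none of the 10 genes passed the test in either knockout line against sgCON. In YAPKO1, 0 of 10 were called at a limma adjusted p under 0.05, against 12.0% of all genes tested, and 2 had an unadjusted p under 0.05. In YAPKO2, 0 of 10 were called, against 27.1% of all genes, and 4 had an unadjusted p under 0.05. Libraries of the compared groups did not overlap for 2 of the 10 genes in YAPKO1 and 5 in YAPKO2, against 33.9% and 52.6% of all genes. The 10 log2 changes had a median of -0.16 in YAPKO1 and -0.27 in YAPKO2, where the medians of all genes were 0.00 and 0.01. These negative medians hold without a correction for GC content. With it, SAV1, LATS1, MOB1A, MOB1B and NF2 were positive in both lines, and the other genes were negative. The extremes were then STK4 (-0.28) and SAV1 (0.69) for YAPKO1, and AMOT (-0.42) and LATS1 (0.58) for YAPKO2. Without the correction, the lowest adjusted p was 0.118 for SAV1 in YAPKO1 and 0.0887 for STK3 in YAPKO2. The spread does not exclude sizeable changes: the 95% intervals of the 10 genes reached from -0.99 to 1.05 for YAPKO1 and from -1.24 up to 0.63 for YAPKO2. The count in YAPKO1 was 1 (SAV1) with quantile normalization and with the GC correction, with or without a replicate block. It was also 1 (SAV1) without the 3 libraries of highest GC trend in their groups. The count in YAPKO2 was 4 (STK3, STK4, NF2 and AMOT) with only the groups compared, 2 (LATS1 and AMOT) with the GC correction and 1 (LATS1) when a replicate block was added to it. YAPKO2 against YAPKO1 in DMSO gave 0 of 10 called, against 6.97% of all genes, 0 with an unadjusted p under 0.05, and 1 without overlap, against 20.5%.

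In trametinib, AMOT was lower in both knockout lines than in sgCON, and STK3 and MOB1A were lower in YAPKO2. That is 1 of 10 genes called in YAPKO1, against 15.0% of all genes, and 3 of 10 in YAPKO2, against 36.3%, so neither share exceeds the background. Libraries did not overlap for 4 of the 10 in YAPKO1 and 3 in YAPKO2, against 41.2% and 40.8% of all genes. Both comparisons use the same sgCON libraries, so they are not independent. All 10 log2 changes were negative in YAPKO2, with a median of -0.26 against -0.02 for all genes. With the GC correction SAV1 (0.11), LATS1 (0.19), MOB1B (0.16) and TAOK1 (0.30) were positive there, and the other genes stayed negative. The call count of YAPKO2 was 1 (AMOT) without the 3 libraries of highest GC trend in their groups. The same count came when only the groups compared entered the fit. It was 1 without replicate 2 of YAPKO2 and 4 (STK3, STK4, MOB1A and AMOT) without replicate 3, the libraries at either end of the GC trend, and 1 to 2 without any 1 of the other 4 libraries.

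**Figure D2:**
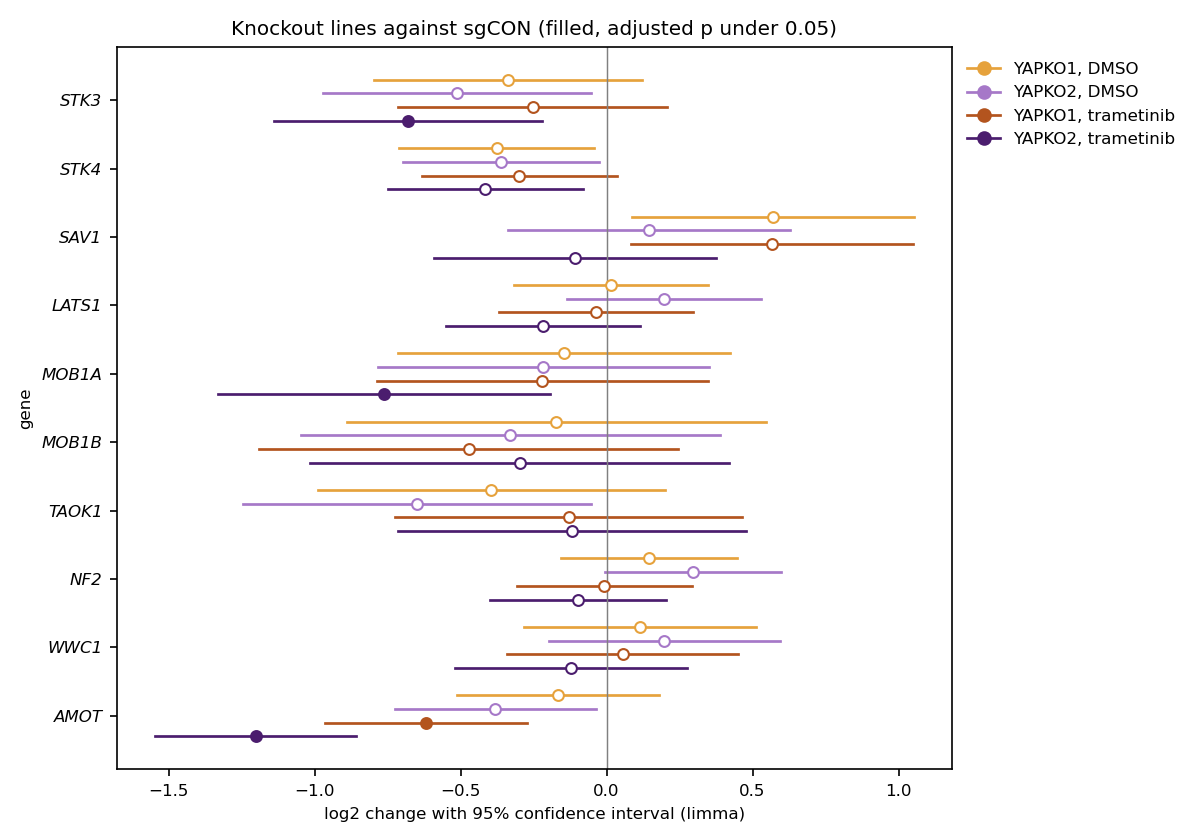
Change of each gene in each knockout line against sgCON in the same treatment (x axis, log2 change with its 95% confidence interval from limma; y axis, gene), with filled points where the adjusted p was under 0.05. AMOT in trametinib lies farthest from 0, at -0.62 in YAPKO1 and -1.20 in YAPKO2, and no point in DMSO is filled.

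With trametinib, STK4 and NF2 fell in YAPKO2, and no gene passed the test in sgCON or YAPKO1. In sgCON 0 of 10 were called, against 5.22% of all genes, and in YAPKO1 0 of 10, against 7.85%. With an unadjusted p under 0.05 there were 2 in sgCON and 1 in YAPKO1. In YAPKO2, 2 of 10 were called, against 20.1% of all genes. With the GC correction the YAPKO2 count was 6, with MOB1A (-0.57, limma adjusted p = 0.00424), WWC1 (-0.59, 0.0263) and AMOT (-0.43, 0.0452) also lower and TAOK1 higher (0.59, 0.0372). With only the groups compared the YAPKO2 count was 0 and that of sgCON 2 (STK4 and MOB1A). In YAPKO1, NF2 was called lower with the GC correction (-0.36, limma adjusted p = 0.00417). Without the 3 libraries of highest GC trend in their groups, STK4 (-0.55, 0.0260) and MOB1A (-0.39, 0.0263) were called lower in YAPKO1. Treated and DMSO libraries did not overlap for 4 of the 10 genes in sgCON, 1 in YAPKO1 and 3 in YAPKO2, against 36.6%, 21.3% and 28.8% of all genes. The test of the difference in drug response between a knockout line and sgCON called 0 of 10 genes in YAPKO1, against 0.249% of all genes, with 0 at an unadjusted p under 0.05. It called 0 of 10 in YAPKO2, against 4.83%, with 1 (AMOT) at an unadjusted p under 0.05. The drug comparisons of different lines use different libraries, whereas both response differences share the sgCON libraries.

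**Figure D3:**
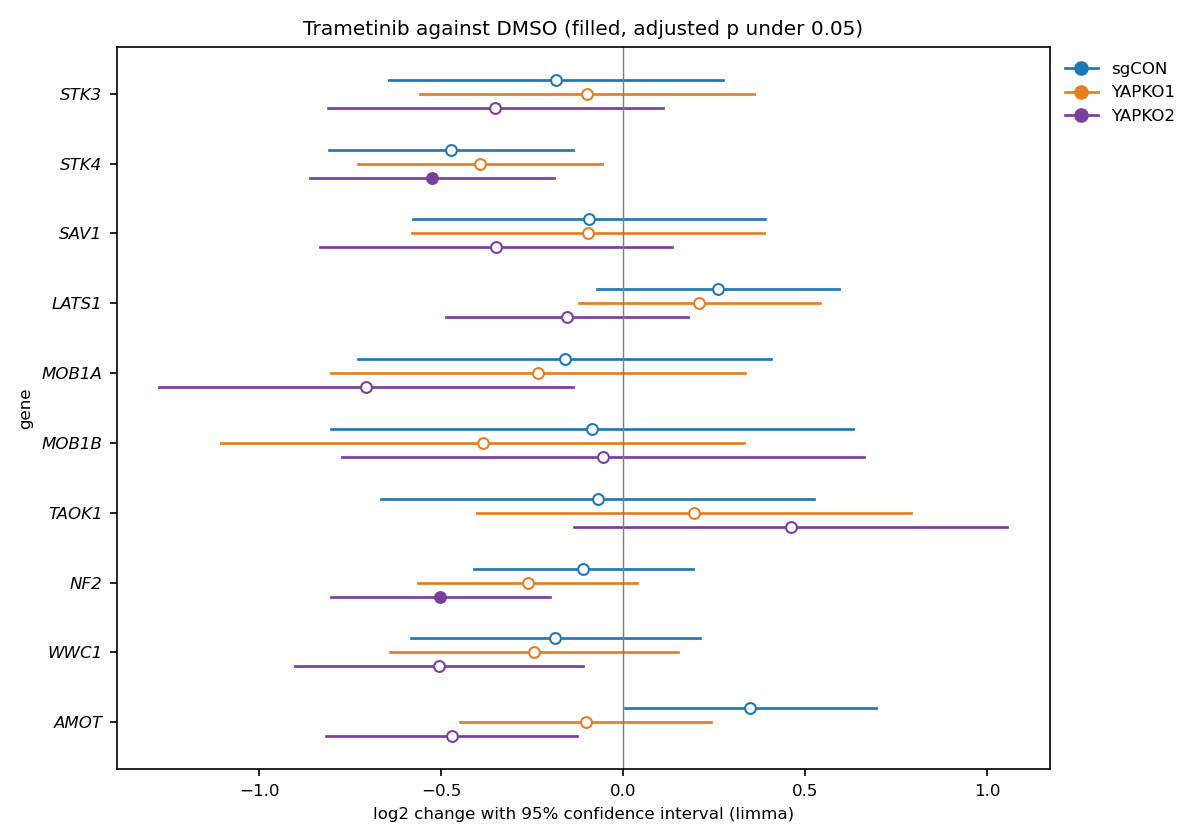
Change of each gene with trametinib against DMSO in sgCON, YAPKO1 and YAPKO2 (x axis, log2 change with its 95% confidence interval from limma; y axis, gene), with filled points where the adjusted p was under 0.05. The 3 STK4 points lie close together, between -0.52 and -0.39, while the AMOT points run from 0.35 in sgCON to -0.47 in YAPKO2.

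STK4 and STK3 are the core kinases of the cascade and can stand in for each other. STK4 read 20.5, 21.9 and 20.97 FPKM in sgCON in DMSO and 14.1, 15.7 and 15.5 in trametinib. In YAPKO1 it read 19.3, 17.0 and 12.9 in DMSO and 11.3, 12.0 and 13.3 in trametinib. In YAPKO2 it read 17.4, 14.7 and 17.0 in DMSO and 8.74, 10.7 and 14.9 in trametinib. Every treated library was below every DMSO library in sgCON, whereas in each knockout line 1 treated library overlapped the DMSO range. The log2 change with the drug was -0.47 ± 0.16 in sgCON, -0.39 ± 0.16 for YAPKO1 and -0.52 ± 0.16 for YAPKO2, with limma adjusted p of 0.106, 0.154 and 0.0269. STK4 thus fell in YAPKO2 by the test, and the response differences from sgCON were small and wide, at 0.08 (95% interval -0.40 to 0.55) for YAPKO1 and -0.05 (-0.53 to 0.42) for YAPKO2. The YAPKO2 call was lost when replicate 1 or 3 in DMSO or replicate 1 or 2 in trametinib was left out (adjusted p up to 0.150), with either table as deposited and with only the groups compared. With a correction for GC content STK4 was called in sgCON (-0.42, adjusted p = 0.0298) and YAPKO2 (-0.44, 0.00959) and not in YAPKO1 (-0.33, 0.0722). Without the 3 libraries of highest GC trend in their groups it was called in YAPKO1 (-0.55, 0.0260) and YAPKO2 (-0.57, 0.0343) and not in sgCON (-0.47, 0.0525).

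STK4 was also lower in the knockout lines than in parental cells in DMSO, where it read 20.4, 23.3 and 22.9 FPKM. The change was -0.44 ± 0.16 in YAPKO1 and -0.43 ± 0.16 in YAPKO2 (limma adjusted p = 0.0466 and 0.0419), and every knockout library was below every parental one. sgCON differed from parental cells by -0.07 ± 0.16 (adjusted p = 0.840). These calls lie close to the threshold: of the 11 other settings of scaling, filter and model, 2 kept the call in YAPKO1 and 4 in YAPKO2. It was also lost in YAPKO1 without any 1 of 5 libraries, all but YAPKO1 replicate 1 (adjusted p up to 0.238), and in YAPKO2 without any 1 of the 6 (up to 0.156).

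STK3 read 21.03, 21.9 and 23.8 FPKM in sgCON in trametinib and 12.7, 9.64 and 20.8 in YAPKO2 in trametinib. The ranges did not overlap, and the change was -0.68 ± 0.22 (limma adjusted p = 0.0219, 0.624-fold). STK3 transcripts are GC-poor (37.4% GC), and replicate 2 of YAPKO2, the library with the highest GC trend, gave the lowest value. Without that library the change was -0.44 (adjusted p = 0.140), the call was also lost without YAPKO2 replicate 1 or sgCON replicate 2 or 3, and without YAPKO2 replicate 3 the change was -0.97 (0.000524). With a correction for GC content it was -0.21 (adjusted p = 0.0872). In DMSO STK3 read 30.0, 24.8 and 21.8 in sgCON and 19.0, 16.4 and 17.5 in YAPKO2, a change of -0.51 ± 0.22 that missed the threshold (adjusted p = 0.0887) and passed it with only the groups compared (0.0238).

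The ratio of STK4 to STK3 within a library is unaffected by scaling. The transcripts differ in GC content (43.4% and 37.4%), and the ratio was not corrected for it. In DMSO its geometric mean was 1.03 in parental cells, 0.835 in sgCON, 0.812 for YAPKO1 and 0.928 for YAPKO2, and in trametinib 0.680, 0.656 and 0.819 in the last 3 lines. The treated mean was below the DMSO mean in each line, and the libraries of the 2 treatments overlapped in each. In YAPKO2 in trametinib, replicate 2, the library of highest GC trend, gave 1.12, against 0.689 and 0.716 in replicates 1 and 3. The paralogs are similar in sequence, and reads that match both could have been split between them in quantification. The same holds for MOB1A and MOB1B.

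SAV1, the scaffold that ties the STK kinases to LATS, had the largest positive change of the 10 genes in YAPKO1 against sgCON. It read 4.01, 5.49 and 5.39 FPKM in sgCON and 8.003, 8.94 and 5.97 in YAPKO1 in DMSO, and 3.79, 3.77 and 6.64 against 7.21, 7.38 and 6.48 in trametinib. The DMSO ranges did not overlap, while in trametinib 1 sgCON library lay inside the YAPKO1 range. The changes were 0.57 ± 0.23 in both treatments, with limma adjusted p of 0.118 and 0.109. They passed the threshold with a correction for GC content (0.69 in DMSO, adjusted p = 0.0153, and 0.70 in trametinib, 0.0120). Against parental cells SAV1 in YAPKO1 stood at 0.28 ± 0.23 and was not called (adjusted p = 0.381). In YAPKO2 the values were 5.64, 5.29 and 5.56 in DMSO, a change from sgCON of 0.15 with a 95% interval of -0.34 to 0.63.

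LATS1, the kinase that phosphorylates YAP1, varied least. It read 4.32, 3.41 and 3.56 FPKM in sgCON in DMSO, 3.80, 4.25 and 3.36 in YAPKO1 and 5.30, 3.46 and 4.52 in YAPKO2. The 3 groups overlapped, and the changes were 0.02 (95% interval -0.32 to 0.35) and 0.20 (-0.13 to 0.53). With trametinib it read 4.86, 4.54 and 4.36 in sgCON, all above the DMSO libraries, a change of 0.26 ± 0.16 that was not called (limma adjusted p = 0.428). A correction for GC content gave 0.58 for YAPKO2 against sgCON in DMSO (adjusted p = 0.00314) and 0.39 against parental cells (0.0270). Its paralog LATS2, itself known as a target of YAP1 and picked out after its values were seen, was lower than in sgCON in both knockout lines. It read 3.87, 3.76 and 4.10 in sgCON, 2.31, 2.18 and 2.92 in YAPKO1 and 2.69, 2.54 and 2.15 in YAPKO2 in DMSO, with changes of -0.58 ± 0.14 in each (adjusted p = 0.0142 and 0.00738).

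MOB1A and MOB1B are the small coactivators that bind LATS. MOB1A read 50.6, 49.2 and 50.1 FPKM in sgCON in trametinib and 36.3, 14.7 and 46.6 in YAPKO2 in trametinib, without overlap. The change was -0.76 ± 0.27 (limma adjusted p = 0.0351, 0.590-fold). The value depended on which YAPKO2 library entered: without replicate 2 the change was -0.28 (adjusted p = 0.197) and without replicate 3 it was -1.09 (0.00178). With a correction for GC content it was -0.29 (0.103). The call was also lost without any 1 sgCON library (adjusted p up to 0.0786). MOB1B was not called in any comparison and had the widest errors of the 10 (SE 0.34 between 2 groups). It read 6.56, 2.73 and 4.78 in YAPKO2 in DMSO and 4.47, 2.12 and 7.74 in trametinib, with replicate 2 the lowest each time. MOB1B transcripts hold 34.3% GC, lower than all but 0.888% of coding genes tested. MOB1A exceeded MOB1B by a mean ratio of 6.97 in YAPKO2 in trametinib and by 9.36 to 11.6 in the other 6 groups. The treated YAPKO2 libraries (6.03 to 8.13) overlapped those of YAPKO2 in DMSO (7.68 to 15.1) and of no other group.

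Within YAPKO2 in trametinib, replicates 2 and 3 lie at opposite ends of the GC trend (1.34 and -0.25), and the 10 genes differed between them in both directions. The pair was picked for this trend, which is itself the difference between GC-rich and GC-poor genes in these libraries. A difference by GC content among the 10 genes was thus built into the choice. MOB1B, MOB1A, SAV1 and STK3 were lower in replicate 2 by log2 differences of -1.87, -1.67, -1.15 and -1.11, as were TAOK1, LATS1 and STK4 by -0.95, -0.61 and -0.47; these 7 hold between 34.3% and 43.4% GC. NF2 (56.0% GC), AMOT (46.4%) and WWC1 (54.4%) were higher there, by 0.60, 0.45 and 0.08. Both libraries carry the same label, so this is a difference within a group.

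**Figure D4:**
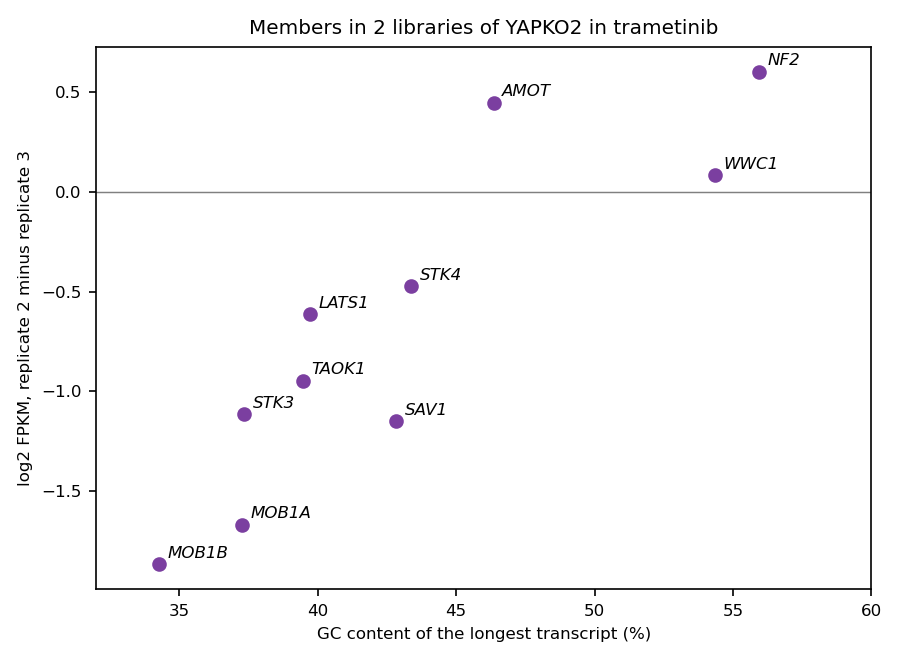
Difference between replicates 2 and 3 of YAPKO2 in trametinib (y axis, log2 FPKM) against the GC content of the longest annotated transcript (x axis, percent), with 1 point per gene. MOB1B, at the lowest GC content, lies at -1.87 and NF2, at the highest, at 0.60. The pair of libraries was picked for its GC trend.

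**Figure D5:**
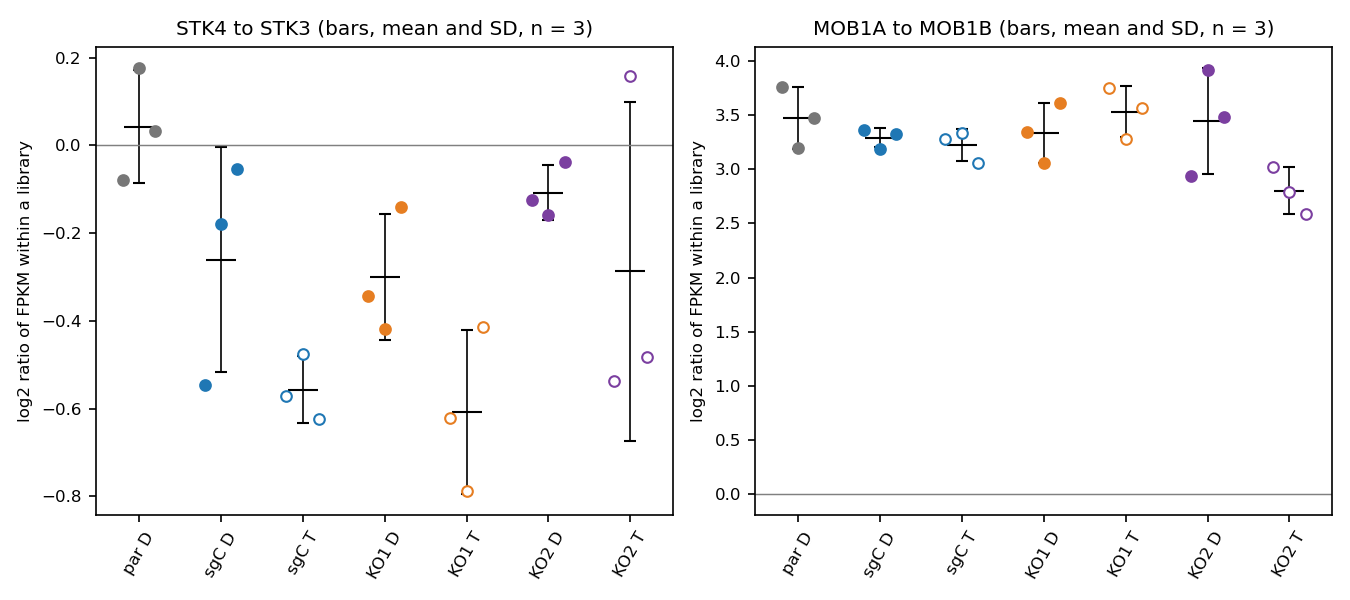
Ratio of STK4 to STK3 (left) and of MOB1A to MOB1B (right) within each library (y axes, log2 ratio of FPKM) in the 7 groups (x axes), with 1 point per library and bars for mean and SD. The MOB1A to MOB1B means lie between 3.23 and 3.53 except in YAPKO2 in trametinib, at 2.80. The points of that group (2.59 to 3.02) overlap those of YAPKO2 in DMSO (2.94 to 3.92).

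TAOK1, a kinase that activates STK4 and STK3, read 14.7, 14.5 and 19.7 FPKM in parental cells, 12.5, 16.0 and 10.1 in sgCON, 12.8, 9.39 and 7.07 in YAPKO1 and 11.5, 5.46 and 7.73 in YAPKO2 in DMSO. It was lower in YAPKO2 than in parental cells, by -0.99 ± 0.28 (limma adjusted p = 0.0112, 0.504-fold), with no overlap. Against sgCON the change was -0.65 ± 0.28 and was not called (adjusted p = 0.0951), and the ranges overlapped. sgCON stood at -0.34 ± 0.28 from parental cells (adjusted p = 0.485). TAOK1 is also GC-poor (39.5%), and with a correction for GC content its change in YAPKO2 was -0.56 from parental cells (adjusted p = 0.0353) and -0.26 from sgCON. The call against parental cells was lost without parental replicate 3 or YAPKO2 replicate 2 (-0.74, adjusted p = 0.0746).

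NF2, the merlin tumour suppressor that brings LATS to the membrane, was highest in YAPKO2 in DMSO. In DMSO it read 16.1, 16.3 and 15.1 FPKM in parental cells, 18.8, 18.4 and 16.4 in sgCON, 17.1, 18.3 and 24.8 in YAPKO1 and 20.9, 23.2 and 22.1 in YAPKO2. In trametinib it read 16.0, 15.5 and 18.2 in sgCON, 17.5, 14.9 and 17.0 in YAPKO1 and 15.5, 18.9 and 12.5 in YAPKO2. YAPKO2 in DMSO was thus above all sgCON and parental libraries and above its own treated libraries. NF2 was higher in YAPKO2 than in parental cells by 0.47 ± 0.14 (limma adjusted p = 0.0164) and fell with trametinib in YAPKO2 by 0.50 ± 0.14 on the log2 scale (adjusted p = 0.0191, 0.706-fold). In YAPKO1 the change with the drug was -0.26 ± 0.14 and was not called (adjusted p = 0.310). It passed there with a correction for GC content (-0.36, 0.00417). The YAPKO2 drug response differed from that of sgCON by -0.39 ± 0.20, which was not called (adjusted p = 0.349). With a correction for GC content that difference was -0.43 (adjusted p = 0.0144), the change from parental cells was 0.21 (0.0406), and NF2 was called lower in YAPKO2 than in sgCON in trametinib (-0.36, 0.00102; without the correction -0.10 and not called). The drug call was lost without replicate 2 or 3 of YAPKO2 in DMSO or replicate 3 in trametinib (adjusted p up to 0.0662) and with only the groups compared (0.164), and the call against parental cells without parental replicate 3 or YAPKO2 replicate 2 (up to 0.0624).

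WWC1, which works with NF2, was higher in both knockout lines than in parental cells and was not called against sgCON. It read 5.55, 4.47 and 4.32 FPKM in parental cells, 6.49, 9.49 and 5.47 in sgCON, 7.08, 7.30 and 8.45 in YAPKO1 and 7.37, 7.98 and 8.92 in YAPKO2 in DMSO. Both knockout lines were above all parental libraries and overlapped sgCON. Against parental cells WWC1 was higher by 0.62 ± 0.19 in YAPKO1 and 0.71 ± 0.19 in YAPKO2 (limma adjusted p = 0.0206 and 0.00744). The YAPKO1 call was lost without parental replicate 2 or 3 or YAPKO1 replicate 3 (adjusted p up to 0.0816) and with a correction for GC content (0.49, 0.0544). The change of sgCON from parental cells was 0.51 ± 0.19 and missed the threshold (adjusted p = 0.0776). Against sgCON, WWC1 differed by 0.11 (95% interval -0.28 to 0.51) in YAPKO1 and 0.20 (-0.20 to 0.59) in YAPKO2. In trametinib it read 5.31, 7.62 and 5.50 in sgCON, 7.40, 5.78 and 5.90 in YAPKO1 and 6.92, 5.09 and 4.80 in YAPKO2. The treated YAPKO2 libraries lay below those in DMSO, a change of -0.51 ± 0.19 that was not called (adjusted p = 0.0675) and passed with the GC correction (-0.59, 0.0263).

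Counted over the 10 genes, sgCON against parental cells gave 0 called, against 15.9% of all genes, with 1 (WWC1) at an unadjusted p under 0.05. YAPKO1 against parental cells gave 2 called (STK4 lower, WWC1 higher), against 27.3%, and YAPKO2 gave 5 (STK4, TAOK1 and AMOT lower, NF2 and WWC1 higher), against 37.8%. Libraries did not overlap with parental ones for 3 of the 10 genes in sgCON, 5 in YAPKO1 and 8 in YAPKO2, against 45.6%, 43.1% and 57.8% of all genes. The count called for YAPKO1 was 0 with a correction for GC content and ran from 0 to 4 when 1 library was left out, and that for YAPKO2 ran from 2 to 4.

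AMOT, which binds YAP1 and LATS, showed the clearest differences between lines. It read 16.7, 15.3 and 21.4 FPKM in parental cells. In DMSO it read 15.0, 16.4 and 13.6 in sgCON, 10.8, 15.0 and 14.4 in YAPKO1 and 11.3, 10.8 and 12.1 in YAPKO2. In trametinib it read 21.1, 16.5 and 20.2 in sgCON, 15.0, 10.4 and 11.9 in YAPKO1 and 8.37, 9.22 and 6.77 in YAPKO2. In trametinib every library of both knockout lines lay below every sgCON library, and those of YAPKO2 lay below every YAPKO1 library, a difference that was not tested.

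AMOT was 0.435-fold of sgCON in YAPKO2 in trametinib (log2 -1.20 ± 0.16, 95% interval -1.55 to -0.86, limma adjusted p = 2.53e-05) and 0.651-fold in YAPKO1 (-0.62 ± 0.16, -0.96 to -0.27, adjusted p = 0.0165). The comparisons share the sgCON libraries in trametinib and are not independent. In bulk RNA, fewer cells with AMOT and less AMOT RNA per cell cannot be told apart. The YAPKO2 difference was called in all 11 other settings and with each of the 6 libraries left out in turn, between -1.31 and -1.08. That of YAPKO1 was called in the same 11 settings, and was lost when sgCON replicate 1 or 3 or YAPKO1 replicate 2 or 3 was left out (adjusted p up to 0.0724, -0.51 without YAPKO1 replicate 2). With a correction for GC content the values were -1.21 and -0.63. In DMSO the differences from sgCON were -0.38 in YAPKO2 and -0.17 in YAPKO1, neither called (adjusted p = 0.0919 and 0.537), though that of YAPKO2 passed with only the groups compared (adjusted p = 0.0255) and with the GC correction (-0.42, 0.0478), and not when a replicate block was added to that correction (0.0644). Against parental cells AMOT was lower in YAPKO2 by -0.61 ± 0.16 (adjusted p = 0.00770) and not called in YAPKO1 (-0.40 ± 0.16, adjusted p = 0.0814), with sgCON at -0.23 ± 0.16 (adjusted p = 0.400).

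With the drug, the AMOT value of every sgCON library was above the DMSO libraries and that of every YAPKO2 library was below them. The log2 change came to 0.35 ± 0.16 for sgCON, -0.10 ± 0.16 for YAPKO1 and -0.47 ± 0.16 for YAPKO2, with limma adjusted p of 0.276, 0.770 and 0.0507, so none passed. With a correction for GC content the YAPKO2 change passed (-0.43, adjusted p = 0.0452), and with a replicate block added it did not (0.0620). The response of YAPKO2 differed from that of sgCON by -0.82 ± 0.23 (95% interval -1.31 to -0.33), with an adjusted p of 0.0502, just short of the threshold. Over 23 alternative fits this difference ran from -0.95 to -0.70 and passed in 7, with the GC correction among them (-0.79, adjusted p = 0.0278).

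Over the 7 group means on the log2 scale, the tested genes whose pattern was most like that of AMOT were ZNF85 (Pearson r = 0.991), POLR3B (0.989) and MACF1 (0.979). ZNF85 went from 16.2 FPKM in sgCON in trametinib to 6.53 in YAPKO2 in trametinib. The 7 points come from the same libraries, and of 15538 genes compared 76 had an r above 0.95.

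The bases before the starts of AMOT and STK4 are shown because these genes carried the difference between lines and the most similar drug change across lines. They come from RefSeq (GRCh38.p14) and end at the transcription start, or for STK4 where the GENCODE gene model begins if that comes first. Capitals mark matches, on either strand, to motif letters of factors tied to these pathways: CATTCC for TEAD, CCGGAAG for ETS factors, TGANTCA for AP-1 and CACGTG for E-box factors. AMOT lies at chrX:112840832-112841081 on the minus strand (68.8% GC) and STK4 at chr20:44966262-44966473 on the plus strand (70.8% GC).
AMOT: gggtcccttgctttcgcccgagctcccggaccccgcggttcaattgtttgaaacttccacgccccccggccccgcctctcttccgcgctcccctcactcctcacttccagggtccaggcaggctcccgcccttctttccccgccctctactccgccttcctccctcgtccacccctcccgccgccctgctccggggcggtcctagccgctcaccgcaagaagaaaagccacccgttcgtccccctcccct
STK4: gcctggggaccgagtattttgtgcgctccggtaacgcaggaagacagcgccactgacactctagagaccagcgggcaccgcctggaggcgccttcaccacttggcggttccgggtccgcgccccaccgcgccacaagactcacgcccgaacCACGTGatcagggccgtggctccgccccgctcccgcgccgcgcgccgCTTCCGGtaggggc

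The AMOT sequence held none of the 4 motifs. STK4 held 1 E-box match and 1 ETS match, the latter as its reverse complement, at positions -99 and -52 from the RefSeq start, and they do not overlap. Across 35116 RefSeq promoters of 250 bases, 11.9% held the TEAD letters, 8.52% the ETS letters, 6.57% the AP-1 letters and 6.34% the E-box letters. Of the 10 genes 9 had an entry, and 0 of these held the TEAD letters. LATS1, in 1 of its entries, and MOB1B each held 1 match to the AP-1 letters (TGAATCA and TGATTCA, with A or T at the N). A match is a description of these letters, and its absence says nothing of binding elsewhere.

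Around the cascade, 59 other Hippo genes were listed and 56 were tested. In DMSO 2 were called higher and 8 lower in YAPKO1 against sgCON, and 7 higher and 19 lower in YAPKO2, with medians of -0.17 and -0.26, where 12.0% and 27.1% of all genes were called. In trametinib the counts were 2 and 12 in YAPKO1 and 5 and 23 in YAPKO2, where 15.0% and 36.3% of all genes were called. YAP1, the targeted gene, is on the list and among the lower calls of each of these comparisons. With trametinib 0 rose and 1 fell in sgCON, 1 rose and 2 fell in YAPKO1, and 4 rose and 11 fell in YAPKO2, against 5.22%, 7.85% and 20.1% of all genes called. The response differences called 0 genes in YAPKO1, against 0.249% of all genes, and in YAPKO2, against 4.83%, they called RASSF4 (0.92 ± 0.21, limma adjusted p = 0.0162) and the AMOT relative AMOTL1 (-0.57 ± 0.12, adjusted p = 0.0106).

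AMOTL1 read 28.0, 30.5 and 28.0 FPKM in YAPKO2 in DMSO, above the 23.2, 23.4 and 24.6 of sgCON, and 19.2, 20.6 and 17.7 in trametinib, below the 23.2, 24.2 and 23.4 of sgCON. The changes were 0.27 ± 0.09 and -0.30 ± 0.09 (limma adjusted p = 0.0262 and 0.0128). AMOTL2, the other relative and a known YAP1 target, was lower in sgCON than in parental cells (7.39 ± 0.594 against 19.1 ± 2.87 FPKM, log2 -1.31 ± 0.16, adjusted p = 2.58e-05 in limma). Its YAPKO1 libraries in DMSO (6.74, 6.97 and 8.27 FPKM) overlapped the sgCON ones (6.73, 7.58 and 7.87). Those of YAPKO2 (4.63, 5.35 and 4.70) lay below both. Under trametinib, AMOTL2 in every library of YAPKO1 (5.61 to 8.09) and YAPKO2 (5.48 to 6.65) lay below sgCON (8.22 to 12.1). In these comparisons 41.2% and 40.8% of all genes had no overlap either. VGLL4, which competes with YAP1 for TEAD, was higher in YAPKO1 and YAPKO2 than in sgCON in DMSO (0.88 ± 0.09 and 0.67 ± 0.09, adjusted p = 4.36e-06 and 4.13e-05). Its mean was 23.3 in parental cells, 13.5 in sgCON, 25.4 for YAPKO1 and 21.8 for YAPKO2, and sgCON differed from parental cells by -0.76 ± 0.09 (adjusted p = 2.24e-05).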

How the data were processed

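Total RNA from 21 libraries was sequenced after removal of ribosomal RNA with a stranded kit, per the labels' protocols. STAR 2.4.2, RSEM 1.3.0 and hg19 are named in the submitters' processing notes, and whether quantification used strand is not given in the sources used here. Values are FPKM as deposited, in a calibrated and an uncalibrated table, which differ by 1 factor per library (0.927 to 1.07), checked on the files. FPKM carry no counts, so depth is unknown and no counting interval is given. Columns whose header names DMSO and a number but no line were taken as the parental libraries, since no other sample fits them.

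Libraries were divided by their median ratio to the geometric mean of each gene. Genes reaching 1 FPKM in 3 or more libraries were tested on log2(FPKM + 0.5), which understates changes of low genes, with limma 3.58.1 in R 4.3.3 (group means over 21 libraries, eBayes with a trend, two-sided, Benjamini-Hochberg over 16092 genes, called under 0.05). The script was tested on simulated data. Fold is 2 to the power of the log2 change. The 13 comparisons are those in the report. Alternatives tried were other pseudocounts (0.1 and 1), no filter, both tables as deposited, quantile normalization, only the groups compared, a replicate block, a per-library GC correction (natural spline on transcript GC, 5 degrees of freedom) with and without that block, leaving out 3 libraries with the highest GC trend of their groups, picked from earlier results of these data, and leaving out each replicate.

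All 10 genes are described. From the other Hippo genes the rule took, per comparison, the up to 2 rises and 2 falls of greatest size among those called, of which some are named here and 1 is not reported here. For the gene with the widest span it took the 3 most similar genes. LATS2 was picked after its values were seen. Members and lists were chosen with earlier results of these data known. Gene type, GC content of the longest transcript and guide positions come from GENCODE v29 (GRCh38), matched by gene ID. No hg19 coordinate is used.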

Additional observations from a re-analysis of the deposited data

Results flagged for a closer look

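The trametinib response of AMOT in YAPKO2 minus that in sgCON was -0.82 on the log2 scale. It was picked out because AMOT in every treated sgCON library was above every DMSO library of that line, while in YAPKO2 every treated library was below every DMSO library. The test of the difference itself gave a limma adjusted p of 0.0502, which does not pass the threshold.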

How the results depend on the processing

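Of 221 alternative values of the 13 gene and comparison pairs that were called, 149 were called and 0 reversed; AMOT in YAPKO2 against sgCON in trametinib and against parental cells were called in every alternative run. The number of the 10 genes called moved as follows. With a GC correction it was 1 and 2 for YAPKO1 and YAPKO2 against sgCON in DMSO (0 and 0 in the report), 2 for YAPKO1 in trametinib (1), 1, 1 and 6 for the drug in sgCON, YAPKO1 and YAPKO2 (0, 0 and 2), 2 for the response difference of YAPKO2 (0) and 0 for YAPKO1 against parental cells (2). The GC correction with the replicate block gave 1, 1, 2, 1, 1, 5, 2 and 0 for the same comparisons, and 3 for YAPKO2 against parental cells (5). Without the 3 libraries of highest GC trend in their groups it was 1 for YAPKO1 in DMSO, 2 and 1 for YAPKO1 and YAPKO2 in trametinib (1 and 3), 2 for the drug in YAPKO1, 1 for the response difference of YAPKO2 and 0 for YAPKO1 against parental cells. With only the groups compared it was 4 for YAPKO2 in DMSO, 1 for YAPKO2 in trametinib, 2 and 0 for the drug in sgCON and YAPKO2, and 1 for YAPKO1 against parental cells. Quantile normalization gave 1 and 2 for YAPKO1 against sgCON in DMSO and trametinib. The calibrated and uncalibrated tables as deposited each gave 1 for the drug in YAPKO2, and the uncalibrated table and a pseudocount of 1 each gave 1 for the response difference of YAPKO2. For YAPKO1 against parental cells no filter, both tables as deposited, quantile normalization and the replicate block each gave 1. The cause of these shifts was not tested.

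Leaving out 1 library gave 0 to 1 for YAPKO2 against sgCON in DMSO, 0 to 1 for YAPKO1 and 1 to 4 for YAPKO2 in trametinib, 0 to 1 for the drug in YAPKO1, 0 to 3 for the drug in YAPKO2, 0 to 1 for the response difference of YAPKO2, 0 to 1 for sgCON, 0 to 4 for YAPKO1 and 2 to 4 for YAPKO2 against parental cells.

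The replicate numbers did not pair the libraries: of 63 pairs with the same number 4 had a correlation above 0.1 (from -0.551 to 0.361), and 2 of 21 libraries correlated best with their own number. The replicate block changed no count of the 10 genes by over 1.5 times other than the one above. The depth is unknown, so no counting error could be given for any gene.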
